A study of Mus musculus with 6 samples.

Results

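The miR-143 and miR-145 cluster was represented by 4 rows of the deposited table, hsa-mir-143-3p, hsa-mir-143-5p, hsa-mir-145-5p and hsa-mir-145-3p, out of 1983 rows in all. The members were taken by name, as every row that names either miRNA, with earlier results of these data known. All 4 were among the 329 rows that passed the filter on low values. That filter asked for a value above the floor of the table in at least 3 of 6 libraries. Small RNA was sequenced from epididymal white adipose tissue (WAT) of male C57BL6/J mice, in 3 libraries from wild type (Wt) mice and 3 from Agt Tg mice, which carry an angiotensinogen transgene driven in adipose tissue by the aP2 promoter. Angiotensinogen is the precursor of angiotensin II. The aP2 promoter is also active in macrophages, so the transgene may not be limited to adipocytes, and the tissue was sequenced whole. The labels give a chow diet for both genotypes, the study's methods a low fat diet, and no source used here gives the age. The labels do not say whether each library came from a separate mouse, so the p-values describe the spread between these libraries.

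MiR-143 and miR-145 are made from 2 hairpins of 1 primary transcript, that of the long noncoding RNA Carmn. They are best known from vascular smooth muscle and pericytes, where serum response factor and its partner myocardin drive their transcription and where they favour the contractile state of the cell. MiR-143 also rises as preadipocytes become adipocytes in culture, and adipose tissue holds both cell classes. Each hairpin is cut into a 5p and a 3p strand, of which Argonaute usually keeps 1 as the guide and lets the other decay. In miR-143 the usual guide is the 3p strand, and in miR-145 it is the 5p strand.

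In RefSeq on mouse GRCm38.p6, the same assembly as the mm10 build named in the submitters' processing notes, the Mir143 hairpin spans bases 61649196 to 61649258 of chromosome 18 and the Mir145a hairpin bases 61647825 to 61647894. Both lie on the minus strand, with 1301 bases between them, so that Mir143 comes first in the direction of transcription. RefSeq places both within Carmn, at 61645878 to 61665538, whereas the Carmn model of GENCODE M21 ends 366 bases before Mir143. Mouse has a second miR-145 gene, Mir145b, on the same chromosome at 69022199 to 69022273, outside the Carmn locus. Because miRNAs are listed by human names, reads of Mir145a and Mir145b could not be told apart by name.

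The libraries held between 6387766 and 10562634 reads, as recovered from the deposited log2 values, and the listed miRNA rows took 51.8 to 57.2% of them. Levels are given as reads per 1000000 of those reads (CPM). Library Wt 2 stood apart: its Spearman correlation with the other 5 averaged 0.926, against 0.959 to 0.965 for the rest, and 12 rows were more than 2 log2 units above every other library there, against 0 rows in each of the other libraries. The rows listed here for epithelium, epididymis and testis, among them miR-34c-5p and miR-375, summed to 14278 CPM in Wt 2 and to 126 to 206 CPM in the other 5 libraries. Their part in the results was not tested, and the differences of the members and of their ratios are given with and without Wt 2.

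MiR-143-3p, the guide strand of its hairpin, was among the most abundant miRNAs of this tissue in both genotypes, ranking 4th of 329 rows by mean log2 value. Its level was 36918, 44440 and 39385 CPM in Wt 1, 2 and 3 and 41897, 43135 and 56877 CPM in Agt Tg 1, 2 and 3. Agt Tg 3 was the highest of all 6 libraries and Wt 1 the lowest, and the ranges of the genotypes overlapped, since Wt 2 was above Agt Tg 1 and 2. Between 275539 and 600767 reads stood behind each value, so that counting error was at most 0.0027 on the log2 scale, far below the spread between libraries. The 2 rows above it in mean log2 value were miR-22-3p and miR-10a-5p, and the 2 below it miR-99b-5p and miR-26a-5p. MiR-22-3p was higher in 6 of 6 libraries, by a mean of 0.43 log2 units. MiR-10a-5p could not be ranked against miR-143-3p, as it was higher in 3 of 6 libraries and their mean difference of 0.030 log2 units was smaller than its SD of 0.28. MiR-26a-5p was lower in each library, by 0.89 ± 0.11 log2 units (SD, n = 6).

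MiR-145-5p, the guide strand of the other hairpin, was present at 1162, 1008 and 1750 CPM in Wt 1, 2 and 3 and at 1006, 2319 and 1445 CPM in Agt Tg 1, 2 and 3. Each genotype held 1 or more libraries close to the lowest value and a library well above it, so the groups overlapped over most of their range. Its highest library, Agt Tg 2, was 2.31-fold above its lowest, Agt Tg 1, while miR-143-3p varied 1.54-fold over the same libraries. MiR-145-5p ranked 42nd of 329 rows by mean log2 value, beside miR-25-3p, miR-23a-3p, miR-26b-5p and miR-142-5p, none of which differed from it by more than the SD of the difference.

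The passenger strands were far lower. MiR-145-3p was at 117, 166 and 113 CPM in the Wt libraries and at 152, 151 and 244 CPM in the Agt Tg libraries. Wt 1 and 3 were the lowest and Agt Tg 3 the highest, but Wt 2 exceeded Agt Tg 1 and 2, so the groups overlapped. MiR-145-3p ranked 96th, next to miR-301a-3p and miR-615-3p.

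MiR-143-5p was at 26.3, 17.1 and 12.9 CPM in Wt and at 16.9, 20.7 and 22.6 CPM in Agt Tg. Both its highest and its lowest library were Wt, and all the Agt Tg libraries lay between them. It rested on 127 to 239 reads per library. In Wt 3, for instance, 127 reads were counted, with an exact 95% Poisson interval of 106 to 151 reads, and its counting error averaged 0.11 on the log2 scale, below its SD of 0.36 over the 6 libraries. Such intervals cover counting error only, since reads without molecular identifiers are not independent molecules. It ranked 169th, between miR-378d and miR-144-3p. The ranges of the 4 members over the 6 libraries did not overlap one another, so that the order miR-143-3p, miR-145-5p, miR-145-3p, miR-143-5p held in each library. That order is of reads, since ligation and amplification also differ between small RNAs.

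**Figure D1:**
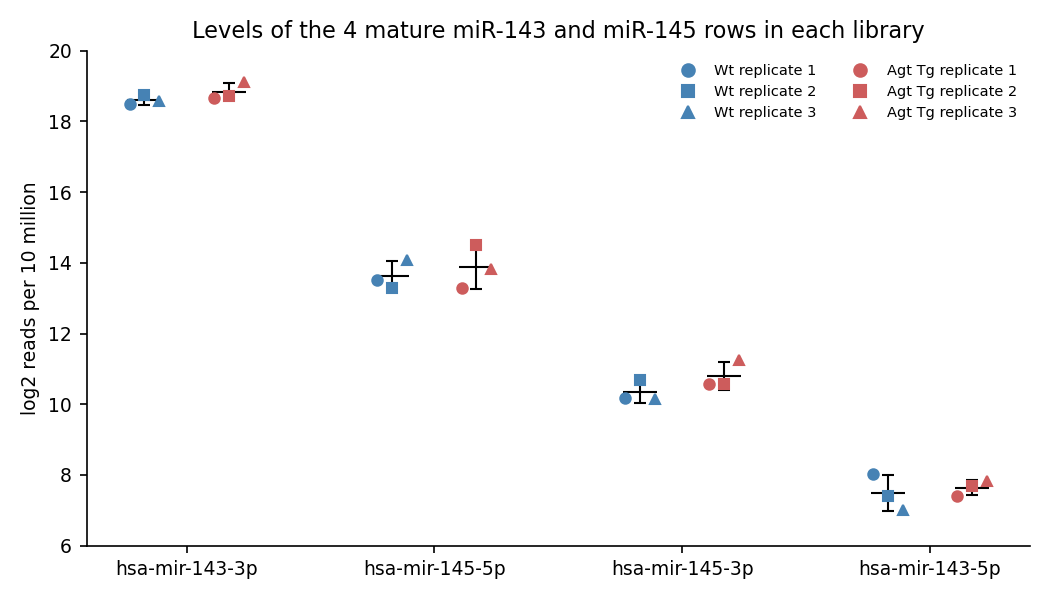
Level of each member in each library, as log2 of reads per 10000000, with Wt libraries in blue and Agt Tg libraries in red, replicate numbers by symbol, group means as horizontal lines and SD as error bars. MiR-143-3p lies between 18.49 and 19.12 and miR-143-5p between 7.01 and 8.04, and the genotypes overlap for all 4 members.

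The study asked which miRNAs differ in WAT between mice that overexpress angiotensinogen and Wt mice. None of the 4 members passed either criterion. All 4 had a higher mean in Agt Tg than in Wt, by 0.15 to 0.45 on the log2 scale. The smallest adjusted p among them was 0.572 (limma, Benjamini-Hochberg over 329 rows).

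MiR-143-3p had a mean of 18.61 ± 0.14 in Wt and 18.84 ± 0.24 in Agt Tg (log2 of reads per 10000000, SD, n = 3 each). The difference was 0.22 log2 units (SE 0.18, 95% interval -0.19 to 0.64, limma adjusted p = 0.616), which is a ratio of 1.17 with an interval of 0.877 to 1.55. A rise of more than 1.55-fold and a fall to a ratio under 0.877 therefore lay outside that interval. Those bounds hold for scaling to library totals with all 6 libraries. Without Wt 2 the difference was 0.30, and scaling all 6 libraries by a trimmed mean of M values gave 0.35.

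For miR-145-5p the means were 13.63 ± 0.41 in Wt and 13.87 ± 0.60 in Agt Tg (SD, n = 3 each), a difference of 0.24 (SE 0.35, interval -0.59 to 1.07, limma adjusted p = 0.760). Agt Tg 2 decided its sign: without that library the difference was -0.075, and without Wt 2 it was 0.072. The interval, from 0.665-fold to 2.09-fold, includes a 2-fold rise.

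MiR-145-3p showed the largest difference of the 4, with means of 10.34 ± 0.31 for Wt and 10.79 ± 0.40 for Agt Tg (SD, n = 3 each). The difference was 0.45 (SE 0.28, interval -0.22 to 1.12, limma adjusted p = 0.572), or 1.37-fold, and it was 0.63 without Wt 2. MiR-143-5p went from 7.49 ± 0.52 to 7.64 ± 0.22, a difference of 0.15 (SE 0.34, interval -0.65 to 0.94, limma adjusted p = 0.838), which was 0.11 without Wt 2 and -0.092 without Wt 3. The exact two-sided permutation test of the group means gave p = 0.3 for miR-143-3p and miR-145-3p and p = 0.7 for miR-143-5p and miR-145-5p, where 0.1 is the smallest p that 3 against 3 libraries allow.

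Over all rows tested, 16 of 329 (4.86%) had an unadjusted p of at most 0.05 with a change of at least 2-fold, and 0 of the 4 members were among them. Without Agt Tg 1, 35 rows were called, and the members, whose differences stayed at or under 0.63 when any 1 library was left out, were again not among them. At an adjusted p under 0.05 no row was called (0%), although 30 rows had an unadjusted p under 0.05 in limma and 28 in limma-voom, which also called 0 rows after adjustment. The groups did not overlap for 58 rows (17.6%), none of them a member of the cluster. The median row was 0.19 log2 units lower in Agt Tg. Relative to that median the members were 0.41 (miR-143-3p), 0.33 (miR-143-5p), 0.43 (miR-145-5p) and 0.64 (miR-145-3p) higher. Between 76.6 and 90.0% of the rows tested had a lower log2 difference than each member. Scaling by a trimmed mean of M values (TMM) moved the median row by 0.12, and the 4 differences, 0.27 to 0.58 on that scale, kept their positive sign.

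**Figure D2:**
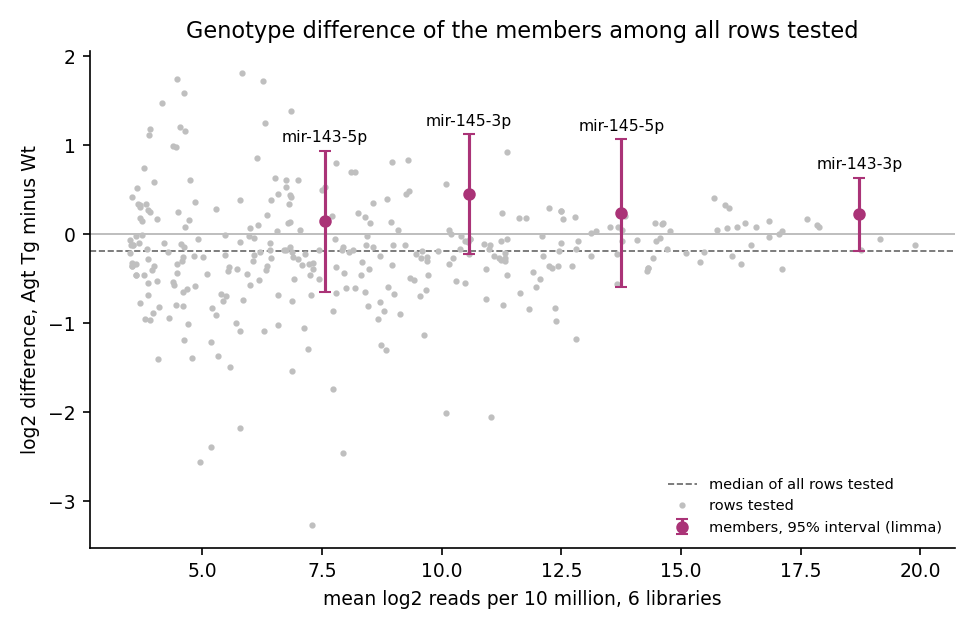
Difference between Agt Tg and Wt in log2 units against mean log2 level for the 329 rows tested, with the 4 members in purple and their 95% limma intervals drawn. All 4 intervals include 0, and the members lie above the median row at -0.19.

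As a share of all reads on listed miRNA rows, the 4 members together took 7.06, 8.28 and 7.22% in Wt 1, 2 and 3 and 8.07, 8.81 and 10.7% in Agt Tg 1, 2 and 3. Agt Tg 3 was the highest, and Agt Tg 1 lay below Wt 2, so the groups overlapped. The means were 7.52 ± 0.67% in Wt and 9.19 ± 1.35% in Agt Tg (SD, n = 3 each), which differed by 1.68 percentage points (exact two-sided permutation p = 0.2). Without Agt Tg 3 the difference was 0.924 points, and without Wt 2 it was 2.06 points. MiR-143-3p alone was 94.5 to 97.4% of the reads of the cluster and miR-145-5p 2.21 to 5.08%, although the hairpins share a primary transcript. In bulk tissue, a change in the number of cells that express the cluster and a change in its level per cell cannot be told apart.

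The ratio of the strands within a hairpin does not depend on library size. In miR-143, reads of the 3p strand outnumbered those of the 5p strand 1402, 2600 and 3046-fold in Wt 1, 2 and 3 and 2482, 2087 and 2514-fold in Agt Tg 1, 2 and 3. Wt 1 held the least lopsided hairpin and Wt 3 the most, with all Agt Tg libraries between them. The 5p strand made up 0.0713% of the hairpin's reads in Wt 1 (exact 95% Clopper-Pearson interval 0.0617 to 0.0820%) and 0.0328% in Wt 3 (0.0274 to 0.0390%), so these libraries differed beyond counting error within 1 genotype.

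By its mean log2 ratio of 5p to 3p, -11.16, miR-143 was, as listed, first of the 70 hairpins with both strands tested on the 3p side. MiR-22 at -10.60 and miR-23a at -10.05 came next. MiR-143 had the lowest ratio in 5 of 6 libraries, and in Wt 1 its ratio of -10.45 was above those of miR-22 (-10.63) and miR-23a (-10.49). MiR-23a-5p was above the floor in 3 of 6 libraries, so the mean ratio of miR-23a is an upper bound and its place below or above miR-143 is not settled. At the opposite end stood miR-10b at 12.90, miR-10a at 11.31 and miR-99b at 11.00. Hairpins with a strand that failed the filter on low values are not among the 70, so more lopsided ones may be missing from this order.

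MiR-145 was less lopsided, and its ratio spread more over the libraries than that of most hairpins. Its 5p strand outnumbered the 3p strand 9.96, 6.07 and 15.5-fold in Wt 1, 2 and 3 and 6.61, 15.4 and 5.92-fold in Agt Tg 1, 2 and 3. Wt 3 and Agt Tg 2 were high, and Wt 2 and Agt Tg 1 and 3 were low, so the values fell into neither genotype alone. The 3p strand was accordingly 6.05% of the hairpin's reads in Wt 3 (exact 95% interval 5.71 to 6.41%) and 14.5% in Agt Tg 3 (13.9 to 15.0%), a difference well beyond counting error. The SD of its log2 ratio over the 6 libraries was 0.65, the 6th largest of 70 hairpins, whose median SD was 0.40. For miR-143 the SD was 0.39, 37th of 70.

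Neither strand ratio differed between the genotypes beyond the spread of the libraries. The log2 ratio of 5p to 3p in miR-143 was -11.12 ± 0.59 in Wt and -11.20 ± 0.15 in Agt Tg (SD, n = 3 each), a difference of -0.077 (SE 0.35, interval -0.85 to 0.70, limma adjusted p = 0.897 over 70 hairpins). In miR-145 it was 3.29 ± 0.68 in Wt and 3.08 ± 0.75 in Agt Tg, a difference of -0.21 (SE 0.44, interval -1.18 to 0.75, limma adjusted p = 0.897). Without Wt 2 the differences were -0.19 and -0.56, and leaving out Wt 1 for miR-143, or Wt 3 or Agt Tg 3 for miR-145, turned their sign, to 0.26, 0.12 and 0.042. The exact permutation test gave p = 1 for miR-143 and p = 0.7 for miR-145. Of all 70 hairpins, 0 (0%) passed the unadjusted criterion and 0 (0%) an adjusted p under 0.05 in limma, 5 had an unadjusted p under 0.05, and the groups did not overlap for 8 (11.4%), none of them a hairpin of the cluster.

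**Figure D3:**
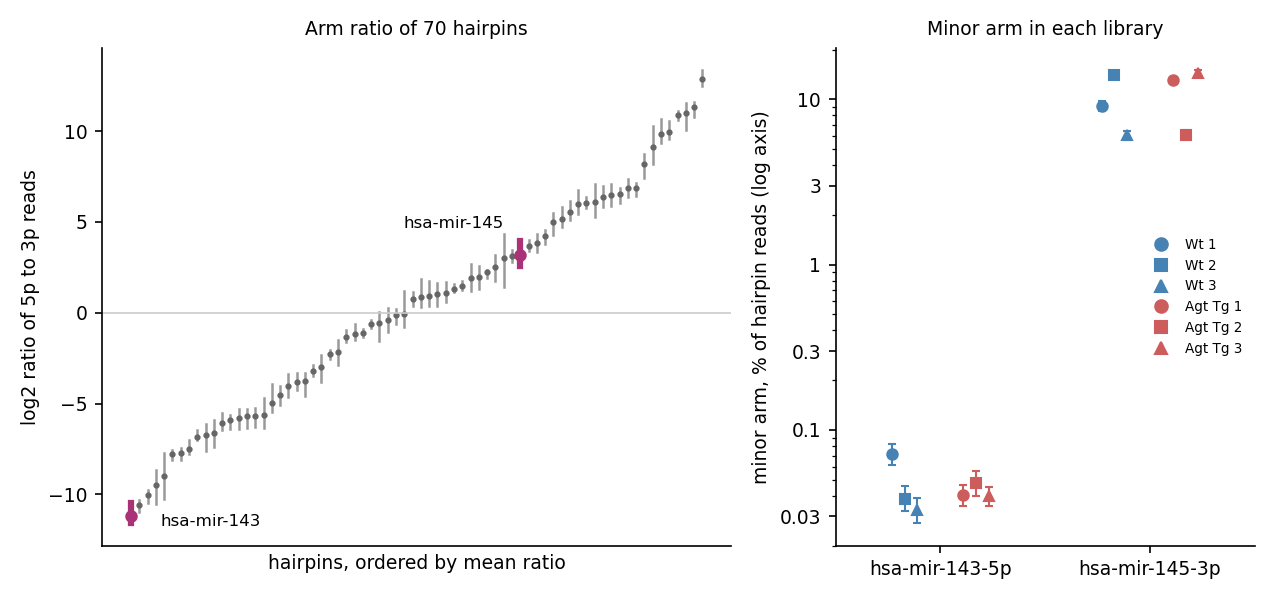
Left, log2 ratio of 5p to 3p reads for 70 hairpins ordered by mean, with points for means and lines for the range over 6 libraries. Right, the minor strand as a percent of hairpin reads in each library on a log axis, with exact 95% intervals. By listed values miR-143 is at the 3p end at -11.16, and the minor strand of miR-145 runs from 6.05 to 14.1% in Wt and from 6.11 to 14.5% in Agt Tg.

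Since both hairpins come from 1 transcript, their strands were followed across libraries. MiR-143-3p and miR-145-3p varied together over the libraries of both genotypes taken as a whole. The log2 ratio of the first to the second was 8.16 ± 0.20 (SD, n = 6), 8.27 ± 0.19 in Wt and 8.04 ± 0.16 in Agt Tg, although one is the guide of its hairpin and the other the passenger. Of 14196 pairs among the 169 more abundant rows, 4.46% had a smaller SD of their log2 ratio, and the median SD was 0.52. Among the tighter pairs were those of miR-143-3p with rows outside the cluster. Their SD was 0.098 with miR-30a-3p, 0.107 with miR-26a-5p and 0.110 with miR-99a-5p, so a steady ratio to miR-143-3p was not particular to miR-145-3p. For miR-143-3p and miR-145-5p, the guides, the log2 ratio was 4.97 ± 0.51 (SD, n = 6), and 48.4% of the same pairs had a smaller SD, with a mean of 4.98 ± 0.49 in Wt and 4.97 ± 0.65 in Agt Tg (exact two-sided permutation p = 1). That difference of -0.016 became 0.22 without Wt 2.

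Over the 6 libraries, Pearson's r between miR-143-3p and miR-145-3p was 0.97 (exact permutation p = 0.0111) and Spearman's rho 0.886 (exact permutation p = 0.0333). Adjusted over the 6 pairs of members these became 0.0667 and 0.2, so the relation did not pass the correction. Without Agt Tg 3 and Wt 1, the libraries farthest from the median of miR-143-3p, r was 0.95. Leaving out a single library gave r from 0.91, without Agt Tg 3, to 1.00, without Wt 3, and the exact permutation p was 0.0667 without Agt Tg 3 or without Wt 2. Under 3 other scalings of the libraries r was 0.97 to 0.99. These tests of r and rho were not planned beforehand, and they shuffle libraries across the genotypes. Both rows had a higher mean in Agt Tg, so a shared genotype difference may enter r. With 3 libraries a genotype, r was not computed within genotypes.

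No relation of miR-145-5p to miR-143-3p was detected in these libraries, with r = 0.071 (exact permutation p = 0.792) and rho = 0.029, and r = -0.29 without Agt Tg 3 and Wt 1. Under the 3 other scalings r was 0.13 to 0.39. With its own passenger strand, miR-145-3p, r was -0.075 (exact permutation p = 0.95) and rho -0.37. Agt Tg 2 and Wt 3 were the highest libraries for miR-145-5p, but Agt Tg 3 and Wt 2 the highest for miR-145-3p. That r was 0.61 without Agt Tg 2 and Wt 3 and -0.020 to 0.34 under the other scalings. The remaining pairs, those with miR-143-5p, had r from -0.060 to 0.29, and these values rested on single libraries. Without Wt 1, for instance, r of miR-143-5p was 0.79 with miR-143-3p and 0.86 with miR-145-3p, and without Agt Tg 3 it was -0.32 with miR-143-3p. Under miR-191-5p scaling r of miR-143-5p was 0.71 with miR-143-3p and with miR-145-3p.

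**Figure D4:**
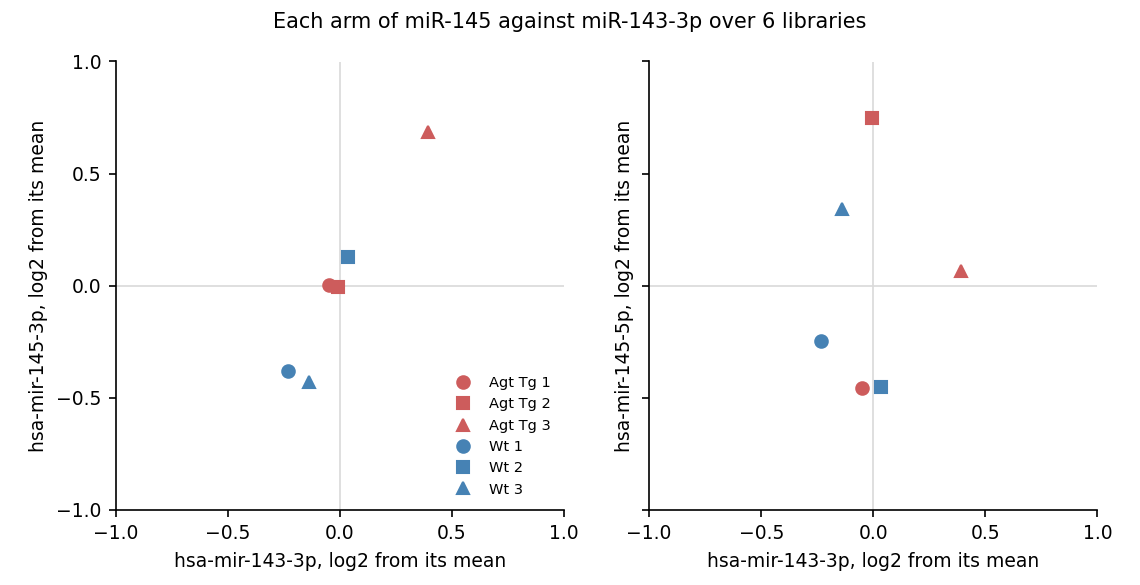
MiR-145-3p (left) and miR-145-5p (right) against miR-143-3p in each of 6 libraries, each as log2 difference from its mean over the libraries. The points rise together on the left (r = 0.97) and show no common direction on the right (r = 0.071).

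The rows most like miR-143-3p over the 6 libraries, as Pearson's r across rows that share the same libraries and totals, were miR-145-3p (0.97), miR-9-5p (0.95), miR-26a-5p (0.93), miR-99a-5p (0.90) and miR-30a-3p (0.90). The rows most like miR-145-5p were miR-4449 (0.89), miR-4787-5p (0.88), miR-378a-5p (0.87), miR-614 (0.84) and miR-3925-5p (0.83). MiR-4449 and miR-4787-5p lay close to the floor, at mean log2 levels of 3.70 and 3.61, so their r rested on few reads. MiR-3925-5p, at 4.55, and miR-9-5p, at 4.40, were also low. The lists, which include these low rows, had no row in common. With r = 0.071 between miR-143-3p and miR-145-5p an overlap was unlikely, so its absence is not separate evidence. MiR-143-3p ranked 107th of the rows by likeness to miR-145-5p. By likeness to miR-145-3p it ranked 2nd, after miR-9-5p (0.98).

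Rows that mark the cell classes of this tissue give the setting of the cluster. Of a list of 10 miRNAs outside the cluster that are known from the contractile or the synthetic state of smooth muscle, 8 were tested, 0 were called in either direction and the median difference was -0.55, against -0.19 over all rows. Without Wt 2 those medians were -0.33 and -0.18. The list pools miRNAs of both states, so its median describes neither. Its single differences ran from 0.11 for miR-26a-5p to -1.49 for miR-31-5p, with -0.51 for miR-133a and -0.98 for miR-222-3p, and none of these passed the test. MiR-26a-5p and miR-21-5p led that list, at 21459 to 27628 CPM and 4477 to 8846 CPM, and both are widely expressed. MiR-133a, which marks striated and smooth muscle, was at 48.5 to 169 CPM, with the highest value in Wt 2. The 7 striated muscle miRNAs summed to 170 CPM in Wt 2 and to 49.6 to 65.1 CPM in the other 5 libraries, and 4 of them were at the floor in all libraries. The endothelial miR-126-3p and miR-126-5p summed to 7078 to 8727 CPM in Wt and 7758 to 11827 CPM in Agt Tg, with 0 of 2 called.

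Among fibroblast and mesenchymal miRNAs, 0 of 5 tested were called, with a median of -0.50 that became -0.25 without Wt 2, and among haematopoietic miRNAs 0 of 8, with a median of -0.36 that became -0.51 without Wt 2. The epithelium, epididymis and testis list had 0 of 9 higher and 1 of 9 lower, miR-205-5p, with a median of -2.17 that became 0.046 without Wt 2. MiR-205-5p was called lower without Wt 2 as well. Of the miRNAs known to favour adipocyte differentiation, among them miR-30a-5p, miR-30d-5p and miR-148a-3p, 0 of 11 were called, and of those known to oppose it, such as miR-27b-3p and miR-130a-3p, 0 of 6. Their medians were -0.12 and -0.10. Over all 329 rows, 4.86% were called, and the median was -0.19, or -0.18 without Wt 2. At that share, lists this short would hold few calls or none, so the counts say little about these cell classes. In no list was a row called at an adjusted p under 0.05 (limma). The part of any of these cell classes in the values of the cluster was not tested. MiR-191-5p, the reference of the study's RT-qPCR, had a difference of 0.01 (SE 0.24), and miR-10b-5p, the most abundant row, one of -0.12.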

How the data were processed

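Small RNA libraries from WAT, 3 labelled Wt and 3 Agt Tg, were analysed, grouped by the genotype in the labels. The authors deposited 1 table of log2 values per miRNA, given per 10000000 reads of the library, with a floor of 10. Per the study's methods, the reads were mapped to the genome with Qseq, miRNA profiles came from the Gunaratne pipeline, and reads matching miRBase precursors were kept where they fell on mature miRNAs. Whether lumi, which the methods name for raw data, was applied to these values is not stated. The build in the submitters' processing notes is mm 10, and the miRNA database release is not given in the sources used here. Reads were recovered from the deposited log2 values: 1924 of 1924 values above the floor were whole reads within 0.02. A value at the floor means at most that level, not 0.

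Rows above the floor in at least 3 of 6 libraries (329) were fitted with limma 3.58.1 in R 4.3.3, taking genotype as the sole term and a trend in the variance, and p-values were adjusted by Benjamini-Hochberg over all of them. Log2 differences between the strands of 70 hairpins were fitted likewise. Single values were compared by exact permutation tests (scipy 1.17.1). Calls required an unadjusted p no higher than 0.05 together with a change of 2-fold or more. Named rows were the members, their neighbours in level, the 5 rows most like miR-143-3p and miR-145-5p, the ends of the strand ratios, references and cell class lists, with up to 4 of each list. The members and lists were chosen with earlier results of these data known. Other scalings, filters, a log2(CPM + 1) scale, limma-voom, a replicate block and leaving out each library were tried, and scripts were tested on simulated data.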

Additional observations from a re-analysis of the deposited data

How the results depend on the processing

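Of 100 alternatives for the 8 differences in members, strand ratios, the ratio of the guides and the share of the cluster, 92 kept the direction and 8 turned it. Those that changed only the filter, the variance trend or the replicate block cannot change these differences, so their kept direction says nothing about stability. The turns came from leaving out 1 library or, for the ratio of the guides, also from the linear scale. None of the 82 limma alternatives passed the threshold. The other 18 were exact permutation tests that cannot reach it at this size, and their p says nothing about stability. The lowest limma adjusted p over 60 alternatives of the 4 members was 0.342, without Wt 2. Leaving out 1 library gave differences of 0.083 to 0.30 for miR-143-3p, -0.092 to 0.42 for miR-143-5p, -0.075 to 0.53 for miR-145-5p, 0.22 to 0.63 for miR-145-3p, -0.30 to 0.26 for the strand ratio of miR-143, -0.65 to 0.12 for that of miR-145 and -0.26 to 0.36 for the log2 ratio of miR-143-3p to miR-145-5p. The share of the cluster differed by 0.924 (without Agt Tg 3) to 2.24 percentage points. The cause of the turns was not tested. On the linear scale, where the ratio of the guides ran from 18.6 to 44.1 over the libraries, its mean was 0.413 higher in Agt Tg. On the log2 scale the difference was -0.016, so both were small beside the spread of the libraries. Rows called without adjustment numbered 16, but 7 on the log2(CPM + 1) scale, 3 with a mean of at least 10 CPM, and 12 to 35 without 1 library, the most without Agt Tg 1. Hairpins called numbered 0, but 4 with no filter and 0 to 3 without 1 library. No alternative gave a call after adjustment.

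For same-numbered libraries, the correlations of their deviations from the group means were 0.22, -0.18 and -0.21. Differently numbered libraries gave -0.30 to 0.28. Deviations from a mean of 3 libraries are not independent, so these values cannot show whether libraries were paired. With the replicate number as a block, the adjusted p was 0.699, 0.895, 0.804 and 0.622 for miR-143-3p, miR-143-5p, miR-145-5p and miR-145-3p so no call of a member changed, and 17 rows against 16 were called without adjustment. For each member, the mean counting error lay below the SD over the 6 libraries, at 3 libraries a genotype. Whether more depth would change a call was not tested.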
